A study of Homo sapiens with 8 samples.

Results

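The distal long arm of chromosome 8 was examined as a block of 41 Mb, from 99 to 140 Mb of build hg38, in peak lists of the heterochromatin proteins HP1a and HP1b. Its members were the peaks whose start lay in that block. There were 25731 of them among the 1157865 peaks of 8 libraries, or 2.22%. The block was selected on these same lists, for how densely its peaks lay and how they changed in the knockdowns. Its levels and its knockdown changes are therefore given as a description, without a test of their own.

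The cells were MCF10A, an immortalized, non-tumorigenic line of human breast epithelium, and chromatin immunoprecipitation with sequencing (ChIP-seq) was done in 4 groups of 2 libraries each. HP1a was mapped after HP1b knockdown and in wild-type cells, and HP1b was mapped after HP1a knockdown and in wild-type cells. HP1a is encoded by CBX5 and HP1b by CBX1. Neither protein was mapped in cells depleted of itself, so the level of the protein that was knocked down cannot be checked here. No label says that replicates came from separate cultures, so any test measures only the spread between these libraries. All groups share the chromosomes of 1 cell line, which is known to carry extra copies of some chromosome segments. Copy number and an input track were not analysed here.

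HP1 proteins read histone H3 methylated at lysine 9 through a chromodomain and pair with one another through a chromoshadow domain. They are best known from heterochromatin, the compact and mostly silent part of the genome, and they also bind across some transcribed gene bodies. The block holds MYC, the growth-driving transcription factor gene that lies beside a long stretch poor in protein-coding genes. It also holds RAD21, a subunit of the cohesin ring, EXT1, which polymerizes heparan sulfate, and the collagen gene COL22A1.

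HP1a peaks in the block numbered 460 and 513 in the HP1b knockdown libraries, against 4005 and 3433 in the wild-type libraries. HP1b peaks numbered 3210 and 4316 in the HP1a knockdown libraries, against 4792 and 5002 in the wild-type libraries. The whole lists differ in length too: they hold from 19262 to 19783 peaks for HP1a in HP1b knockdown, 116018 to 134590 for HP1a in wild type, 160082 to 226855 for HP1b in HP1a knockdown and 240368 to 240907 for HP1b in wild type. The number of reads behind each list is unknown. For this reason the covered share, the percentage of bases inside peaks, was also divided in each library by that of the proximal stretch of the same chromosome, 5 to 99 Mb, which held 33697 peaks. That ratio removes a factor common to the whole list, but it still moves with the weak peaks that a longer list adds.

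HP1a peaks covered 0.617 and 0.717% of the block after HP1b knockdown, against 6.13 and 5.13% in wild type. In the proximal stretch HP1a covered 0.236 and 0.233% after knockdown, against 1.98 and 1.78% in wild type. The block-to-proximal ratio for HP1a was 2.62 and 3.07 after knockdown, against 3.10 and 2.88 in wild type, and these ranges overlap. HP1b peaks covered 7.40 and 8.76% of the block after HP1a knockdown, against 8.88 and 9.39% in wild type. The block-to-proximal ratio for HP1b was 2.21 and 1.89 after knockdown, against 1.81 and 1.98 in wild type, which also overlap. Taken whole, the block thus kept its excess over the proximal stretch in all 4 groups.

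**Figure D1:**
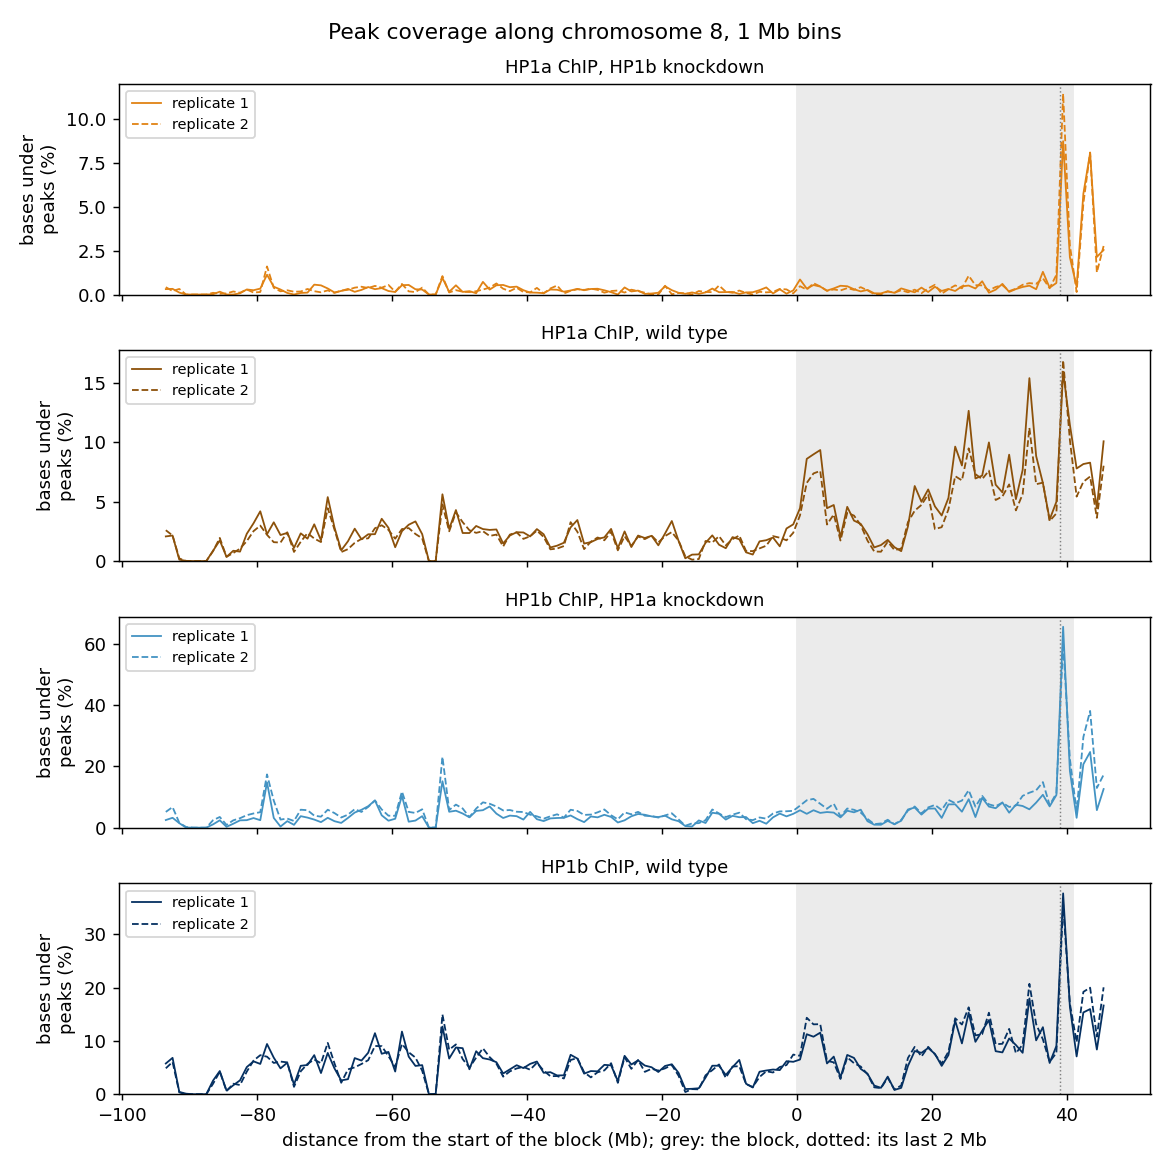
Percentage of bases under peaks in 1 Mb bins of chromosome 8, by distance from the start of the block (Mb), 1 panel per group and 1 line per replicate. The grey block is raised over the proximal stretch, with a dip inside it, and its last 2 Mb hold the highest bin of the block in every library, 8.75 and 11.45% in the HP1a lists after HP1b knockdown against 15.91 and 16.88% in the HP1a wild-type lists.

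The whole hides 2 unlike pieces: the first 39 Mb, from 99 to 138 Mb, and the last 2 Mb, from 138 to 140 Mb, which hold FAM135B, COL22A1, KCNK9 and part of TRAPPC9. This division was chosen after the values were seen. In the first 39 Mb the HP1a ratio to the proximal stretch was 1.57 and 1.66 after HP1b knockdown, against 2.90 and 2.64 in wild type. The groups did not overlap, and the difference was −0.78 on the log2 scale. The covered share itself was 0.379 ± 0.0130% after knockdown and 5.22 ± 0.733% in wild type (SD, n = 2 each), so 13.8-fold fewer bases lay under HP1a peaks, against 8.02-fold fewer in the proximal stretch.

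In the last 2 Mb the HP1a ratio went the other way, at 23.1 and 30.5 after HP1b knockdown against 6.92 and 7.59 in wild type. Covered bases there were 6.28 ± 1.20% after knockdown and 13.6 ± 0.106% in wild type (SD, n = 2 each), which is 2.17-fold fewer. The last 2 Mb accordingly held 43.02 and 48.5% of the block's HP1a peak bases after HP1b knockdown, against 10.9 and 12.9% in wild type.

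For HP1b only the last 2 Mb, of these 2 pieces, had a ratio apart from wild type. In the first 39 Mb the HP1b ratio was 1.68 and 1.53 after HP1a knockdown, against 1.62 and 1.80 in wild type. These ranges overlap, with a log2 difference of −0.09. In the last 2 Mb its ratio was 12.6 and 8.96 after knockdown, against 5.51 and 5.54 in wild type, a log2 difference of 0.94 without overlap. HP1b peaks covered 41.8 ± 0.443% of these 2 Mb after HP1a knockdown and 26.7 ± 0.542% in wild type (SD, n = 2 each). Here the HP1b coverage was higher after knockdown even without any scaling. Counted as peaks instead of bases, the log2 difference of the HP1b ratio was 0.011, and the peaks themselves were wider. Peaks there had a median width of 1295 and 1072 bases after HP1a knockdown, against 756.5 and 702 bases in wild type.

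**Figure D2:**
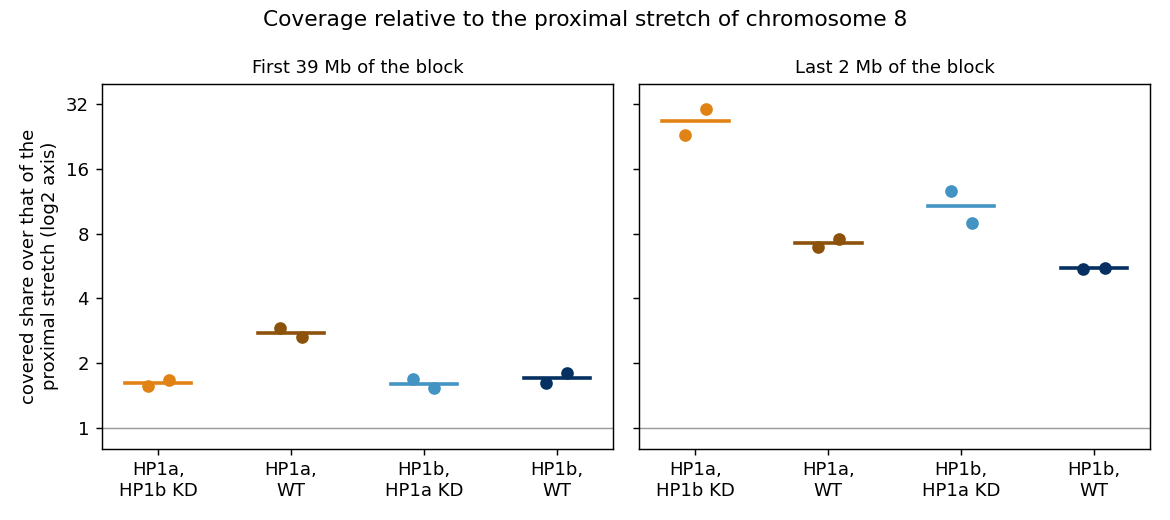
Covered share of the first 39 Mb (left) and the last 2 Mb (right) of the block divided by that of the proximal stretch in the same library (log2 axis). Points are libraries and lines are means of 2; for HP1a the knockdown lies under wild type on the left (1.57 and 1.66 against 2.90 and 2.64) and above it on the right (23.1 and 30.5 against 6.92 and 7.59).

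The HP1a difference in the first 39 Mb moved when only the stronger peaks were kept. The authors' −log10 p had a median of 4.10 ± 0.0988 for HP1a peaks there after HP1b knockdown and 3.58 ± 0.00303 in wild type (SD, n = 2 each). When only peaks with a −log10 p of at least 4 were kept, the HP1a ratio was 1.82 and 2.13 after knockdown, against 2.10 and 2.11 in wild type, and the log2 difference was −0.09. With lists cut to the same number of peaks, taking the strongest by p, the log2 difference was −0.33. With a −log10 q of at least 2 it was 1.27. The knockdown lists then held only 7 and 6 peaks in the first 39 Mb, against 358 and 220 in wild type. In the proximal stretch they held 6 and 2, against 458 and 278 in wild type. In the last 2 Mb the ratios at a −log10 p of at least 4 were 32.1 and 47.5 after HP1b knockdown, against 9.67 and 12.6 in wild type, still apart.

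Replicate peak positions agreed little for HP1a after HP1b knockdown, in the first 39 Mb and still less in the proximal stretch. Of the HP1a peaks in the first 39 Mb, 5.08 and 4.78% met a peak of the other knockdown replicate by at least 1 base. Between the wild-type replicates 31.2 and 37.1% did. In the proximal stretch the shares were 3.35 and 3.30% after knockdown, against 16.7 and 18.6% in wild type. In the last 2 Mb the shares were 32.7 and 26.1% after knockdown, against 41.2 and 44.3% in wild type. HP1b replicates met each other in 51.3 and 38.4% of peaks in the first 39 Mb after HP1a knockdown, against 47.3 and 45.3% in wild type. In the proximal stretch these HP1b shares were 42.6 and 30.2% after knockdown, against 32.6 and 33.0% in wild type. Lists of unequal length meet each other to unequal extents, so these shares describe each list only.

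Along the first 39 Mb the coverage was not even. It was high from 99 to 105 Mb, low from 105 to 115 Mb and high again from 115 to 138 Mb. From 99 to 105 Mb the HP1a ratio to the proximal stretch was 1.95 and 1.68 after HP1b knockdown, against 3.41 and 3.02 in wild type. From 105 to 115 Mb it was 1.05 and 0.891 after knockdown, against 1.09 and 1.10 in wild type, so this middle part stood near the proximal level in all 4 libraries. From 115 to 138 Mb it was 1.69 and 1.99 after knockdown, against 3.55 and 3.20 in wild type. HP1b in the middle part stood at 0.880 and 0.698 after HP1a knockdown, against 0.694 and 0.687 in wild type, under the proximal level. The bins at 110 and 111 Mb, which hold no protein-coding gene, and at 113 Mb, in CSMD3, a very long gene of the nervous system, were among the lowest 4 of the block by mean coverage in every group.

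At the proximal border the 1 Mb bin just outside, from 98 to 99 Mb, had HP1a coverage of 0.235 and 0.0656% after HP1b knockdown, against 3.09 and 2.38% in wild type. The bin just inside, from 99 to 100 Mb, had 0.858 and 0.473% after knockdown, against 4.45 and 3.85% in wild type. The wild-type coverage became high only beyond it: from 100 to 103 Mb it was 0.443 and 0.461% after knockdown, against 8.97 and 7.17% in wild type. In 100 kb windows, HP1b wild-type coverage reached 24.6 and 23.7% at 100.4 to 100.5 Mb, beside RNF19A, where the HP1a knockdown libraries had 7.72 and 12.2%. At the distal border the bin just inside, from 139 to 140 Mb, had HP1a coverage of 2.13 and 2.81% after HP1b knockdown, against 11.5 and 10.2% in wild type. The bin just outside, from 140 to 141 Mb with AGO2 and PTK2, had 0.441 and 0.141% after knockdown, against 7.78 and 5.42% in wild type. Farther out, at 142 to 143 Mb, HP1a lay within the wild-type range, with 8.07 and 8.10% after HP1b knockdown against 8.27 and 7.11% in wild type. HP1b there was 24.7 and 38.2% after HP1a knockdown, against 15.96 and 19.97% in wild type. A pattern like that of the last 2 Mb thus recurred outside the block. HP1b was higher after HP1a knockdown from 0 to 5 Mb too, with 10.8 and 14.6% against 6.44 and 6.70% in wild type. So it was in the proximal bin at −79 Mb from the block's start, with 14.8 and 17.4% against 9.41 and 7.03%. Of 94 proximal bins, HP1b lay higher in both knockdown libraries than in both wild-type libraries in 6 and lower in 41. Over all bins those shares were 13.3 and 44.2%.

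Finer windows put the dense part of the last 2 Mb between about 137.9 and 139.2 Mb. HP1b coverage at 137.6 to 137.7 Mb was 3.90 and 5.47% after HP1a knockdown, against 1.59 and 2.05% in wild type. In the window from 137.9 Mb it was 40.9 and 33.3% after knockdown, against 29.0 and 26.2% in wild type. After knockdown it was highest inside COL22A1, at 138.8 to 138.9 Mb, with 82.6 and 79.0% after knockdown against 40.1 and 44.6% in wild type. At 139.2 to 139.3 Mb it was 9.68 and 15.9% after knockdown, against 16.9 and 16.05% in wild type. The groups overlapped in the next 2 windows, and an excess came back at 139.5 to 139.6 Mb, with 38.8 and 34.4% after knockdown against 16.4 and 18.6% in wild type. HP1a in the window at 138.8 to 138.9 Mb was 10.1 and 14.7% after HP1b knockdown, against 23.7 and 19.96% in wild type.

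The bin from 138 to 139 Mb was the most densely covered of 3020 full 1 Mb bins of the genome in 7 of the 8 libraries, and ranked 4 in the first HP1a wild-type library. Its HP1b coverage was 65.6 and 60.5% after HP1a knockdown, against 37.6 and 35.6% in wild type. The widest HP1b peaks of the block lay there: 18740 and 22989 bases in COL22A1 in the HP1a knockdown lists, against 8724 bases in FAM135B in the first wild-type list. The widest of the second wild-type list, of 8126 bases, lay 55138 bases from ZNF572. HP1b peaks of 4 kb or wider numbered 61 and 47 in the last 2 Mb after HP1a knockdown, against 11 and 5 in wild type.

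The change was then mapped in 1 Mb bins as the log2 change in a bin's share of all peak bases of its library, fitted with limma over all bins of the genome. For HP1a, 18 of 41 block bins were called lower after HP1b knockdown and 1 higher, at a Benjamini-Hochberg adjusted p under 0.05. The background over all bins tested was 7.54% called lower and 7.26% called higher. The block was chosen on this contrast, so nothing is read from that count. The median log2 change was −0.95 over the block bins and −0.34 over all bins. The count was 4 and 5 without the first and the second HP1a wild-type library, where 0.631 and 0.875% of all bins were called lower. It was 28 without the first HP1b knockdown library, where 36.8% of all bins were. It was 0 when only peaks with a −log10 p of at least 4 were kept, where limma gave an unadjusted p under 0.05 in 17 bins. Without scaling to the library's peak bases all 41 were called lower, as were 95.1% of all bins, and the median over all bins was −2.62.

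The largest HP1a falls by this measure were at 127 to 128 Mb and at 130 to 131 Mb. The bin at 127 to 128 Mb, with MYC and its retrogene neighbour POU5F1B, was covered over 0.10 and 0.24% after HP1b knockdown, against 9.98 and 7.61% in wild type. The bin at 130 to 131 Mb, with ASAP1 and ADCY8, was covered over 0.15 and 0.20% after knockdown, against 8.94 and 6.45% in wild type. Their log2 changes were −2.51 ± 0.315 and −2.27 ± 0.252 (limma estimate ± SE). Next came 122 to 123 Mb with ZHX2 (−1.68 ± 0.364), 116 to 117 Mb with RAD21 (−1.65 ± 0.337) and 133 to 134 Mb with TG, CCN4, NDRG1 and ST3GAL1 (−1.65 ± 0.219). The bin at 133 to 134 Mb was the highest of the first 39 Mb in wild type: HP1a covered 0.51 and 0.65% of it after knockdown, against 15.4 and 11.2% in wild type. The bin with the highest log2 change was 138 to 139 Mb (1.98 ± 0.214), followed by 114 to 115 Mb (0.75 ± 0.338) and 139 to 140 Mb (0.56 ± 0.207).

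For HP1b, 7 of 41 block bins were called lower after HP1a knockdown and 1 higher. The background was 12% of all bins called lower and 7.06% called higher, and again nothing is read from the count. The lower bins were those at 100, 102, 122, 125, 127, 130 and 133 Mb, and the higher one was at 138 Mb. The bin with MYC had HP1b coverage of 6.88 and 7.62% after knockdown, against 13.9 and 15.3% in wild type. Its log2 change was −0.70 ± 0.152. The bin at 133 to 134 Mb had the largest fall (−0.91 ± 0.166), with 5.99 and 11.4% after knockdown against 18.0 and 20.7% in wild type. The count was 1 and 0 without the first and the second HP1b wild-type library, where 2.49 and 0.692% of all bins were called lower, and 0 with peaks of a −log10 p of at least 4 only, where limma gave an unadjusted p under 0.05 in 7 bins. Without scaling 2 were called lower and 1 higher.

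**Figure D3:**
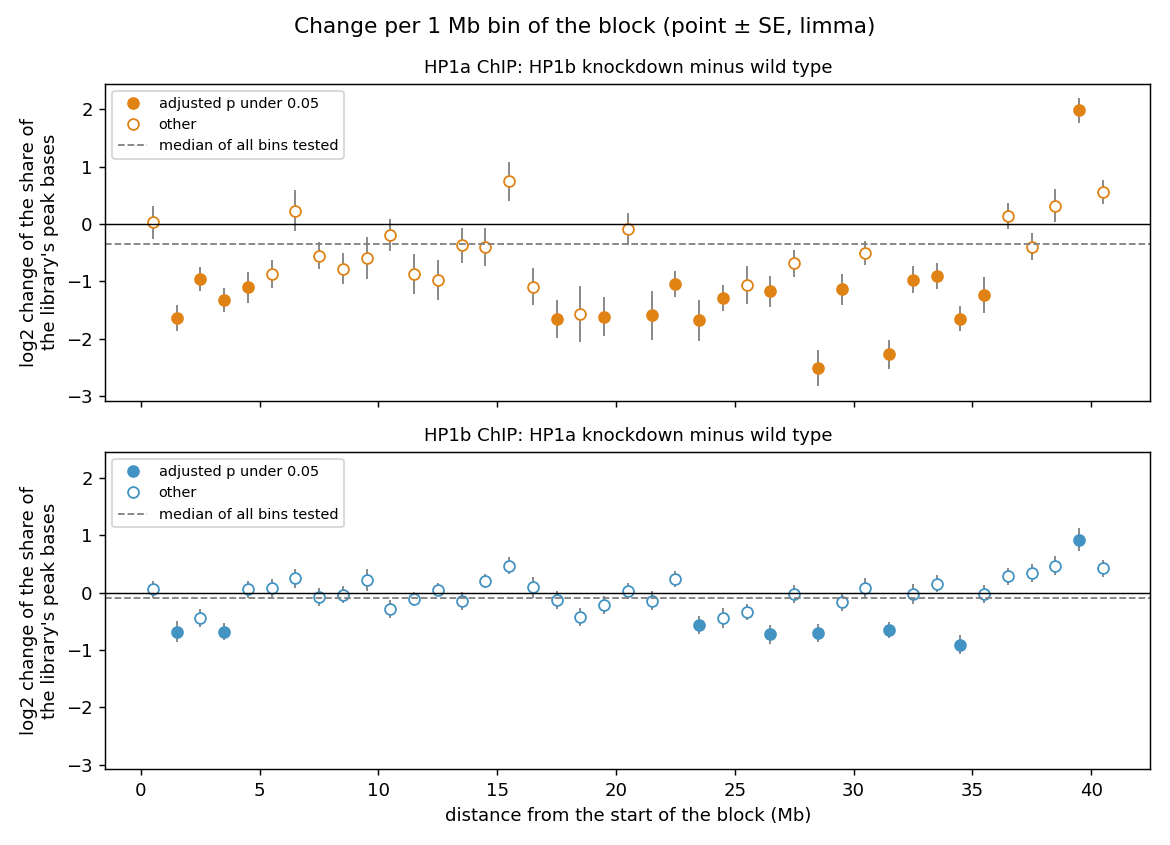
Log2 change of each bin's share of the library's peak bases, knockdown minus wild type, for HP1a (top) and HP1b (bottom), by distance from the start of the block (Mb); points are limma estimates ± SE from 2 against 2 libraries, filled where the adjusted p was under 0.05, and the dashed line is the median of all bins tested. Most HP1a points lie under 0, with 18 bins called lower, and the bin at 138 to 139 Mb is the highest of the block in both panels, at 1.98 and 0.92.

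The 2 maps had a like shape, although they share no library. Over the 41 bins the HP1a and HP1b log2 changes were correlated with Pearson's r 0.81 and Spearman's rho 0.77, and over the 39 bins of the first piece with 0.75 and 0.74. Neighbouring bins are not independent, and these are descriptions. No correlation over bins outside the block is set beside them. All 7 bins called lower for HP1b were also called lower for HP1a, as were 18 of the 41 block bins. The overlap of such calls over all bins is not given, so nothing is read from this count. A direct fit of the difference between the knockdown changes called 0 of 41 bins below 0 and 0 above 0, where 0.0346 and 0.0693% of all bins were called, and 23 block bins had an unadjusted p under 0.05. Without scaling all 41 were called, as were 86.7% of all bins. The scaled count was 21 and 20 without the first and the second HP1a library of the HP1b knockdown, where the single library left is assumed to vary like the other groups, and 29.3 and 31.5% of all bins were called in those fits.

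Between the proteins in wild-type cells, HP1b had the lower block-to-proximal ratio: 1.81 and 1.98 for HP1b, against 3.10 and 2.88 for HP1a, a log2 difference of −0.66 without overlap. In bins, 24 of 41 had a lower share for HP1b than for HP1a and 0 a higher one, where 5.37% of all bins were called lower and 3.81% higher. Wild-type levels may have helped to choose the block, so this too is a description. The ordering of the bins was shared, with r 0.96 and rho 0.98 between the 2 proteins over 41 bins. Without scaling, 36 bins were called, all higher for HP1b, and 96.2% of all bins were called in either direction. The scaled count was 0 and 12 without the first and the second HP1b wild-type library, where 0.693 and 5.58% of all bins were called. It was 0 with peaks of a −log10 p of at least 4, where limma gave an unadjusted p under 0.05 in 9 bins and the log2 difference of the ratio was −0.02.

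The authors' fold over background gave a further description of the first 39 Mb. Among peaks within a band of the authors' p, a −log10 p from 3.5 to 4.5, the fold was compared with that of the proximal stretch. Strength was not equal inside the band. For HP1b after HP1a knockdown the median −log10 p was 3.81 and 3.87 in the proximal stretch and 3.90 and 3.90 in the first 39 Mb. In the last 2 Mb it was 4.09 and 4.09. For HP1b in wild type it was 3.81 and 3.82 in the proximal stretch and 3.80 and 3.86 in the last 2 Mb. For HP1a the median fold in the first 39 Mb was 0.950 and 0.949 of the proximal median after HP1b knockdown, against 0.971 and 0.973 in wild type. For HP1b it was 0.917 and 0.906 of the proximal median after HP1a knockdown, against 0.955 and 0.959 in wild type. It was thus lower than the proximal median in 8 of 8 libraries. In the last 2 Mb it was 0.989 and 1.02 for HP1a after HP1b knockdown against 1.01 and 1.02 in wild type. There it was 1.03 and 1.01 for HP1b after HP1a knockdown, against 1.00 and 1.01 in wild type.

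This lower fold began near the start of the block and ran on through most of the sparse middle part. The first HP1b library after HP1a knockdown was already lower before the block. Its median fold was 2.84 at 93 to 95 Mb and 2.86 at 97 to 99 Mb, against a proximal median of 2.96. At 113 to 115 Mb the first HP1b wild-type library and the second HP1a wild-type library were back near the proximal median. The second HP1a wild-type library was there at 115 to 117 Mb too, with 3.36 against a proximal median of 3.35. In 2 Mb windows the HP1b median fold at 97 to 99 Mb was 2.86 and 2.99 after HP1a knockdown, against 3.25 and 3.28 in wild type. At 99 to 101 Mb it was 2.71 and 2.76 after knockdown, against 3.11 and 3.12 in wild type. At 111 to 113 Mb, where few bases were covered, it was 2.78 and 2.89 after knockdown, against 3.07 and 3.16 in wild type. The part of extra copies of this segment in the density and the changes of its peaks was not tested.

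**Figure D4:**
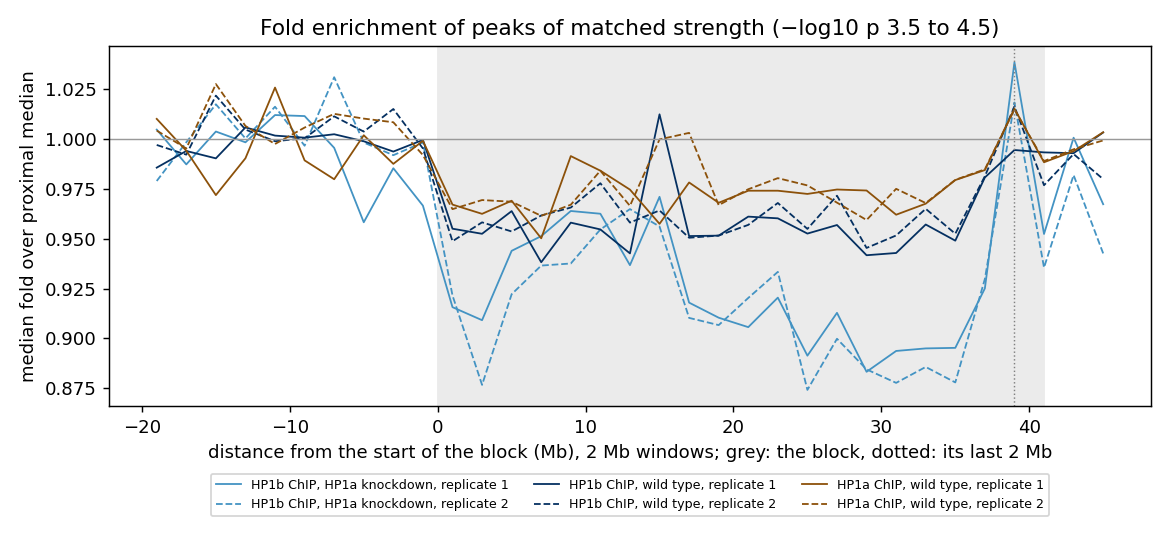
Median fold of peaks with a −log10 p from 3.5 to 4.5 in 2 Mb windows, divided by the proximal median of the same library, by distance from the start of the block (Mb), for the 6 libraries with enough peaks. All 6 lines step down at the start of the block, the HP1b knockdown-of-HP1a lines the furthest (0.917 and 0.906 over the first 39 Mb). They come back near 1 in the window at 137 to 139 Mb. At 139 to 141 Mb the HP1b lists after HP1a knockdown lie lower again, with a fold of 2.82 and 2.80 against proximal medians of 2.96 and 3.00.

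Regions shared by both replicates of a group also differed between the 2 pieces. HP1a had 15 such regions in the first 39 Mb and 52 in the last 2 Mb after HP1b knockdown, against 1105 and 156 in wild type. Of the 1105 wild-type regions of the first 39 Mb, 11.3% met a peak of either knockdown library, and of the 156 of the last 2 Mb 46.2% did. In the proximal stretch the share was 7.10% of 634. HP1b had 1396 such regions in the first 39 Mb and 242 in the last 2 Mb after HP1a knockdown, against 1926 and 305 in wild type. Of these wild-type HP1b regions, 66.9% in the first 39 Mb, 93.8% in the last 2 Mb and 62.5% of 2298 in the proximal stretch met a peak of either HP1a knockdown library. Their median width in the last 2 Mb was 2032 bases after HP1a knockdown and 1604 bases in wild type. After HP1a knockdown HP1b peaks covered 41.8% of the last 2 Mb, 6.35% of the first 39 Mb and 3.98% of the proximal stretch. For HP1a after HP1b knockdown these shares were 6.28, 0.379 and 0.234%. Regions meet a peak more readily where more bases are covered, so the shares met do not measure how well sites were kept.

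Single peaks with the highest fold in the weaker replicate were scattered over the block and mostly small. The strongest HP1a region after HP1b knockdown lay inside FAM135B (chromosome 8, 138311764 to 138312309, 546 bases), with a fold of 4.76 and 4.05. It met no HP1a wild-type peak. The strongest HP1a region in wild type (108941889 to 108942903) had a fold of 5.33 and 4.35 and lay 143682 bases from TRHR. A wild-type HP1a region of 2231 bases between genes (127148420 to 127150650), 262797 bases from POU5F1B, had a fold of 4.28 and 5.09. It met HP1b peaks in all 4 HP1b libraries and no HP1a peak after HP1b knockdown. The strongest HP1b region after HP1a knockdown (106108725 to 106108977), 161201 bases from OXR1, had a fold of 6.70 and 6.45 and met no peak of the other 3 groups. The strongest HP1b region in wild type (115049956 to 115050176) had a fold of 4.25 and 4.33 and met no peak of the other 3 groups. The next one in HP1b wild type, inside ZNF572 (124976599 to 124977841), had a fold of 4.84 and 4.22, and was met in 7 of the 8 libraries.

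The gene bodies of the first 39 Mb were not the favoured place of the peaks there. Protein-coding genes fill 36.3% of the first 39 Mb. They held 25.9 and 26.9% of the HP1a peak bases there after HP1b knockdown, against 31.2 and 28.2% in wild type. They held 24.4 and 27.3% of the HP1b peak bases there after HP1a knockdown, against 27.3 and 29.5% in wild type. In all 8 libraries the share was under that of the sequence itself. The same held in the proximal stretch, where genes fill 39.2% and held from 24.1 to 35.5% of the peak bases.

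Of the 119 protein-coding genes inside the block, 86 had an HP1a peak within 1 kb in both wild-type libraries. Of these, 37 had none in either HP1b knockdown library, or 43.02%, against a background of 47% of 7944 such genes genome-wide. HP1a peaks were kept in all 4 libraries at 23 of the 119 genes, against 1723 of all 19970 genes. They were gained at 0, where 0.27% of all genes gained them. For HP1b, 89 genes had a peak in both wild-type libraries. Of these, 3 had none in either HP1a knockdown library, FBXO43, FAM83A and FAM91A1, against a background of 14.2%. HP1b peaks were kept at 72 of the 119 genes, against 7055 of all 19970 genes. They were gained at 1, NDUFB9, where 1.03% of all genes gained them. These backgrounds are those of the main setting, and nothing is read from the counts. With peaks of a −log10 p of at least 4 only, 20 of 52 genes lost HP1a. The HP1b count was 5 and 15 without the first and the second HP1a knockdown library and 8 without the second wild-type library.

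By covered share of the gene, HP1a lay lower in both HP1b knockdown libraries than in both wild-type libraries at 80 of the 119 genes, and higher at 0. The backgrounds over all 19970 genes were 33.9% for lower and 0.616% for higher. HP1b lay lower in both HP1a knockdown libraries at 37 of the 119 and higher at 14, where the backgrounds were 25.9% for lower and 6.4% for higher. The same contrasts chose the block, and nothing is read from these counts. Genes were grouped by role from here on, with a gene's covered share as the value. Over the 119 block genes, 67.2% lay lower for HP1a, while for HP1b 31.1% lay lower and 11.8% higher. The counts of each role group stand beside these shares and those of all genes, and nothing is read from them either. Peaks carry no strand, so genes that overlap share them.

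Of the 10 genes around MYC, 3 were listed at 0% in all 8 libraries and the others were covered in some. MYC (127735434 to 127742951) was among the 3, although the 1 Mb bin around it was covered in all libraries. Its neighbours TRIB1, a pseudokinase gene, and LRATD2 were the others. In this group 5 genes lay lower for HP1a in both HP1b knockdown libraries and 3 lay lower for HP1b in both HP1a knockdown libraries. CYRIB, which restrains the actin regulator RAC1, was covered by HP1a over 0.150 and 0% after HP1b knockdown, against 9.79 and 3.82% in wild type. Its HP1b share was 1.30 and 0.950% after HP1a knockdown, against 4.97 and 8.53% in wild type. GSDMC, a pore-forming gasdermin, kept HP1b: 15.9 and 14.1% after HP1a knockdown, against 10.7 and 18.4% in wild type, with overlap. ADCY8, an adenylyl cyclase of the nervous system, had HP1a over 0 and 1.02% after HP1b knockdown, against 7.86 and 6.58% in wild type. POU5F1B differed between replicates and is given by its HP1b values only, 18.4 and 0% after HP1a knockdown, against 19.0 and 14.9% in wild type.

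Of the 18 chromatin and transcription genes, 11 lay lower for HP1a and 6 lay lower for HP1b in the knockdowns, and 0 lay higher. RAD21 was listed at 0% in all 8 libraries. ZHX2 (122780379 to 122974510), a zinc-finger homeobox repressor, was covered by HP1a over 0.0943 and 1.02% after HP1b knockdown, against 21.9 and 12.4% in wild type. Its HP1b share was 6.94 and 10.8% after HP1a knockdown, against 23.6 and 26.4% in wild type. GRHL2, a transcription factor of epithelial identity, had HP1a over 0.499 and 0.648% after HP1b knockdown, against 7.62 and 3.68% in wild type. Its HP1b share was 5.80 and 7.20% after HP1a knockdown, against 7.52 and 7.31% in wild type, a small gap without overlap. ZFAT, a zinc-finger gene, had HP1a over 0.345 and 0.796% after HP1b knockdown, against 9.03 and 4.60% in wild type. ZNF572, of the same class, had the highest HP1b share of the named genes outside the last 2 Mb, with 46.97 and 28.1% after HP1a knockdown against 45.7 and 36.7% in wild type.

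Of the 13 matrix and secreted genes, 10 lay lower for HP1a, while for HP1b 4 lay lower and 3 higher. COL22A1 (138588235 to 138914041), a collagen of tissue junctions, was covered by HP1a over 13.3 and 15.1% after HP1b knockdown, against 21.0 and 19.95% in wild type. HP1b covered 78.5 and 77.7% of it after HP1a knockdown, against 42.9 and 41.8% in wild type. TG (132866958 to 133134899), the thyroid hormone precursor, was covered by HP1a over 0.138 and 0.193% after HP1b knockdown, against 15.6 and 11.9% in wild type. Its HP1b share was 1.70 and 6.15% after HP1a knockdown, against 16.4 and 18.0% in wild type. CCN4, a matricellular protein induced by WNT signalling, had HP1a over 0 and 0% after HP1b knockdown, against 17.4 and 8.17% in wild type. Its HP1b share was 1.93 and 4.31% after HP1a knockdown, against 15.97 and 10.9% in wild type. EXT1 (117794490 to 118111826) had HP1b over 1.62 and 2.14% after HP1a knockdown, against 5.88 and 8.20% in wild type, and HP1a at 0 in both HP1b knockdown libraries.

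Of the 13 neural and channel genes, 12 lay lower for HP1a, and for HP1b 2 lay lower and 4 higher. FAM135B (138130023 to 138497730), a gene of poorly known function, had HP1a over 5.98 and 11.5% after HP1b knockdown, against 13.9 and 15.2% in wild type. Its HP1b share was 60.1 and 53.0% after HP1a knockdown, against 34.3 and 33.1% in wild type. KCNK9, a potassium leak channel in the same 2 Mb, had an HP1b share of 7.43 and 28.4% after HP1a knockdown, against 17.8 and 16.5% in wild type, so its replicates straddled wild type. RIMS2, a presynaptic scaffold, had HP1b over 4.86 and 5.02% after HP1a knockdown, against 2.38 and 2.23% in wild type. KCNQ3, a subunit of a potassium channel of neurons, had HP1a over 0.852 and 0.706% after HP1b knockdown, against 8.15 and 8.77% in wild type. NCALD, a neuronal calcium sensor, had 0.712 and 0.497% after HP1b knockdown, against 7.44 and 6.84% in wild type.

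Of the 16 metabolism, transport and translation genes inside the block, 10 lay lower for HP1a, and for HP1b 5 lay lower and 1 higher. NDRG1, a stress-induced gene, had HP1b over 1.12 and 1.496% after HP1a knockdown, against 12.1 and 14.3% in wild type. Its HP1a share was 0 and 0% after HP1b knockdown, against 13.4 and 3.22% in wild type. ST3GAL1, a sialyltransferase, had HP1a over 0 and 1.83% after HP1b knockdown, against 18.0 and 10.9% in wild type. DEPTOR, an inhibitor of mTOR kinase, had HP1a over 0.414 and 0.131% after HP1b knockdown, against 11.7 and 6.59% in wild type. FBXO32, a ubiquitin ligase component, had HP1b over 0 and 6.49% after HP1a knockdown, against 5.55 and 11.8% in wild type.

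**Figure D5:**
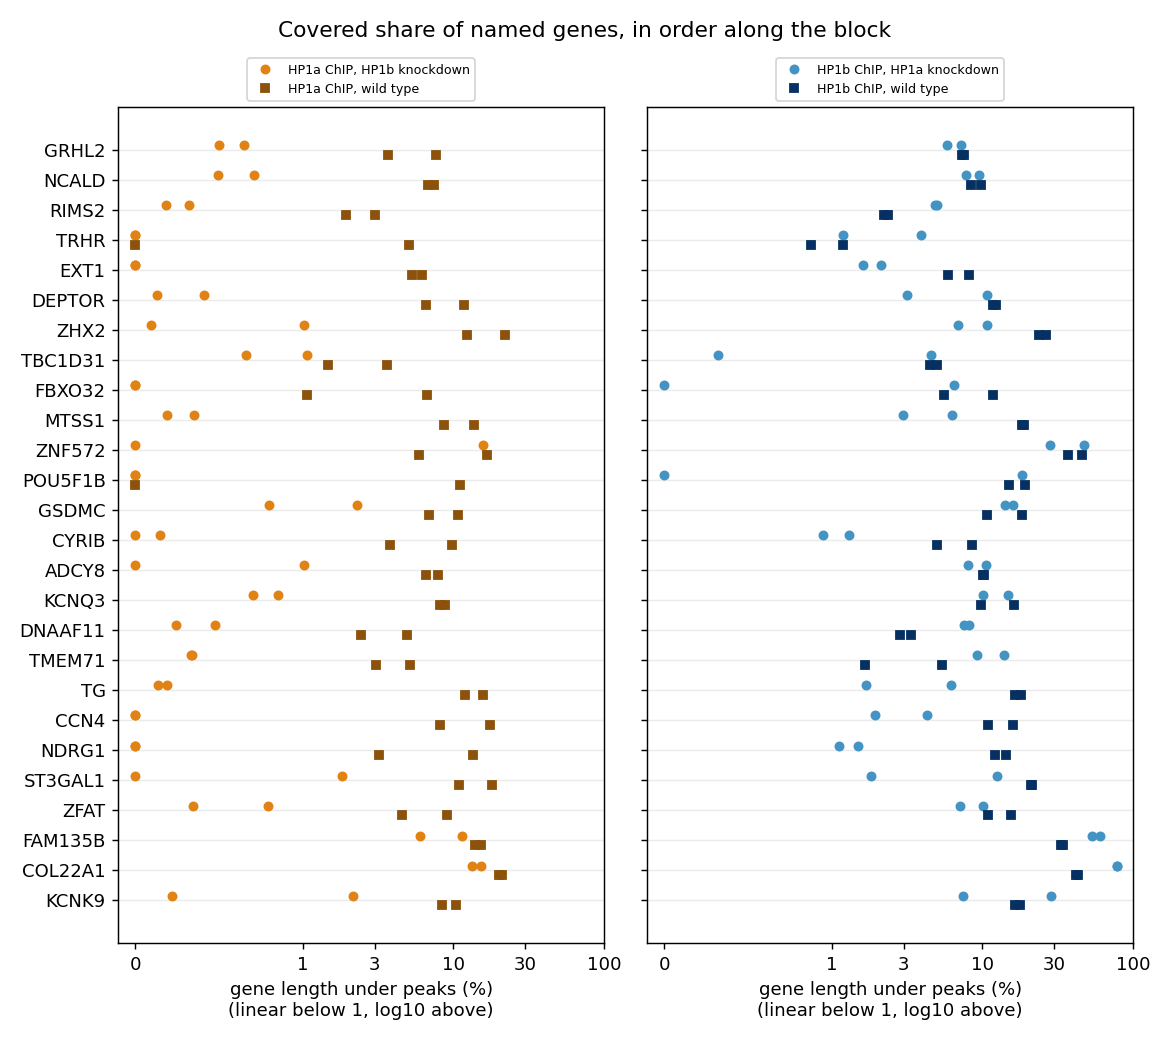
Percentage of each named gene's length under peaks, for HP1a (left) and HP1b (right), genes in order along the block; circles are the 2 knockdown libraries and squares the 2 wild-type libraries (axis linear below 1%, log10 above). HP1a circles lie left of the squares at most genes, and for HP1b COL22A1 and FAM135B have circles to the right of the squares (78.5 and 77.7% against 42.9 and 41.8% for COL22A1).

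Among genes of at least 20 kb with a peak in all 4 libraries of a contrast, the ratio of knockdown to wild-type covered share could be ranked. For HP1a 23 genes were eligible, and all 23 had a ratio under 1, with a median of 0.0920. A gene had to keep a peak in both knockdown libraries to be eligible, so the range leaves out the genes without one. The largest falls were at TG (ratio 0.0120), at MTSS1, an actin-binding membrane protein gene (0.0245), at DEPTOR (0.0297) and at ZHX2 (0.0326). The smallest were at COL22A1 (0.694), FAM135B (0.599), the centrosomal gene TBC1D31 (0.337) and GSDMC (0.176).

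For HP1b 64 genes were eligible, of which 42 had a ratio under 1 and 22 above it, with a median of 0.846. The largest falls were at NDRG1 (0.0991), CYRIB (0.167), TG (0.228) and CCN4 (0.233). The largest rises were at TMEM71 (3.26), at DNAAF11, a gene for the assembly of cilia motors (2.52), at TRHR, the receptor of thyrotropin-releasing hormone (2.48), and at RIMS2 (2.15). The TRHR ratio rested on 1 library, with 3.92 and 1.20% after HP1a knockdown against 1.19 and 0.875% in wild type. TMEM71 and DNAAF11 lie side by side and close to TG, whose ratio was on the other side of 1.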

How the data were processed

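ChIP-seq peaks of HP1a and HP1b in MCF10A cells were taken from 8 broad peak lists, 1 per library. Per the submitters' processing notes, Trimmomatic, Bowtie2, SAMtools and MACS3 were used on build hg38. The deposited lists give each peak's position, a fold ratio over background, −log10 p and −log10 q, and an integer score, all the authors' own. The score was not used. The sources used here do not state parameters, an input control or depth, and no list holds read counts, so counting errors cannot be given. The lowest −log10 q was 1.00 in every list.

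Peaks were placed by their start and merged. Covered bases were summed over the block, over 5 to 99 Mb of chromosome 8 and in bins of 1 Mb on the autosomes and X. Each bin's bases per Mb of the library's peak bases were tested as log2(value + pseudocount) with limma 3.58.1 in R 4.3.3 (trend, Benjamini-Hochberg over all bins, threshold 0.05). The pseudocount was the 10th percentile of values above 0, and bins needed a peak in 2 of 4 libraries, or 4 of 8 for the difference of changes. A fold change on this scale understates changes of low bins. The fit was tested on simulated data. Tables were made in Python 3.11.15 with pandas 2.3.3. Genes and coordinates came from a RefSeq table of GRCh38 protein-coding genes, without exons, and no genome sequence was used. A gene peak lies in the gene or within 1 kb.

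Members, role lists and tests were chosen with earlier results of these data known. The genes named are up to 4 per role list with the highest wild-type covered share, the 4 largest falls and the 4 smallest falls or largest rises per knockdown among genes of at least 20 kb with a peak in all 4 libraries, and MYC, RAD21 and EXT1. Other genes are named where a bin, a border or a count of 3 or 1 needed it, after their values were seen. The division at 138 Mb, the fold within a band of p and the 100 kb windows were also chosen after seeing the data. Alternatives covered peak thresholds, list length, comparator, bin size, pseudocount, filter, scaling, replicate block and each library left out.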

Additional observations from a re-analysis of the deposited data

Results flagged for a closer look

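At 5 of the named genes both HP1a knockdown libraries lay above both wild-type libraries for HP1b, while both HP1b knockdown libraries lay below both wild-type libraries for HP1a. TMEM71, DNAAF11 and RIMS2 were named because their HP1b rises were among the largest. COL22A1 and FAM135B were named for their wild-type coverage and their small HP1a falls. HP1a lay lower at 80 of the 119 block genes and at 33.9% of all genes. HP1b lay higher at 14 of the 119 and at 6.4% of all genes. Nothing is therefore read from the number of such genes. The difference between the knockdowns was not tested at single genes. The ratio of the mean HP1b covered share after HP1a knockdown to that in wild type was 1.84 at COL22A1, 1.68 at FAM135B, 3.26 at TMEM71, 2.52 at DNAAF11 and 2.15 at RIMS2. The HP1a ratio after HP1b knockdown at the same genes was 0.694 at COL22A1, 0.599 at FAM135B, 0.0815 at TMEM71, 0.0979 at DNAAF11 and 0.102 at RIMS2. The HP1a lists after HP1b knockdown are shorter throughout the genome, and their length moves with each of these falls. With 2 libraries per group no library could be called an outlier.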

How the results depend on the processing

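Values are log2 differences of the ratio to the proximal stretch, or counts of bins or genes of the block. The HP1a change of the whole block (−0.07) was 1.65 with a −log10 q of at least 2, 0.57 with a −log10 p of at least 4, 0.22 with lists cut to the same number of peaks, −0.34 against the other autosomes, 0.069 by number of peaks, −0.78 in the first 39 Mb and −0.43 as a median over bins. For the first 39 Mb alone (−0.78) it was 1.27, −0.094 and −0.33 under the first 3 of these settings, −0.45 by number of peaks and −1.04 against the other autosomes. For the last 2 Mb (1.87) it was 2.63 with the q threshold, 1.40 with the same number of peaks and 1.61 against the other autosomes. The HP1a values with the q threshold rest on few peaks after HP1b knockdown. Those lists then held 4 and 3 peaks in the last 2 Mb and 6 and 2 in the proximal stretch.

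The HP1b change of the block (0.11) was 0.59 with the q threshold, 0.68 with the p threshold and −0.089 in the first 39 Mb. For the first 39 Mb alone (−0.09) it was 0.031, 0.12 and, against the other autosomes, −0.21. For the last 2 Mb (0.94) it was 2.63, 2.34 and, by number of peaks, 0.011. The wild-type HP1b minus HP1a difference of the block (−0.66) was 0.12, −0.023 and, with the same number of peaks, −0.31. In the first 39 Mb (−0.70) these were 0.29, 0.10 and −0.38, and in the last 2 Mb (−0.39) they were −0.90, −0.71 and 0.076, with −0.52 by number of peaks and −0.31 against the other autosomes. The cause of each change was not tested.

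HP1a bins called lower (18) numbered 0 with the p threshold, 5 with the same number of peaks, 41 without scaling and 8 without the filter. The shares of all bins called lower in these fits were 0, 4.02, 95.1 and 1.74%. HP1b bins called lower (7) numbered 0 with either threshold and without the filter, 2 without scaling, 31 of 164 in 250 kb bins and 1 when all 8 libraries shared 1 fit. Of all bins, 0% were called lower with the q threshold, 2.33% with the p threshold and 0.197% without the filter. The share was 1.80% without scaling, 11.7% in 250 kb bins and 0.969% in the shared fit. Wild-type bins called (24) numbered 0 with either threshold, without the filter and with all 8 libraries, 9 with the same number of peaks and 1 in 250 kb bins. The share of all bins called was 0% where the count was 0, 8.42% with the same number of peaks and 0.124% in 250 kb bins. Limma's unadjusted p was under 0.05 in 4 to 34 of the 41 bins in these fits with a count of 0. Bins whose knockdown changes differed (0) numbered 20 with the q threshold, 41 without scaling and 3 with 4 times the pseudocount. The shares of all bins called there were 31.8, 86.7 and 1.32%. HP1a genes lost (37 of 86) numbered 21 of 25 with the q threshold, 20 of 52 with the p threshold and 6 of 33 with the same number of peaks, and HP1b genes lost (3) numbered 1 with the q threshold. The genome-wide backgrounds of 47% for HP1a and 14.2% for HP1b are those of the main setting only.

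Replicates share only a number, and with 2 pairs the numbers are not shown to pair them: deviations correlated at 0.061, 0.323 and −0.206 in the HP1a, HP1b and wild-type contrasts. With a replicate block the bin counts were 20, 10, 9 and, for the difference of changes, 0. The shares of all bins called in those fits were 11.3, 22.7, 5.40 and 0%. With the numbers crossed, an alternative added after the values were seen, the wild-type count was 32, where 15.5% of all bins were called.

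Leaving out each library gave a range of −0.19 to 0.04 for HP1a in the block, −0.85 to −0.71 in the first 39 Mb and 1.67 to 2.08 in the last 2 Mb. For HP1b the ranges were 0.00071 to 0.22, −0.16 to −0.01 and 0.70 to 1.19, and for wild type −0.72 to −0.59, −0.77 to −0.62 and −0.46 to −0.32. Counts ranged over 4 to 28 HP1a bins, 0 to 10 HP1b bins, 0 to 29 wild-type bins, 0 to 21 bins with differing changes, 40 to 52 HP1a genes and 3 to 15 HP1b genes. Depth is unknown, so no value could be checked against it.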
